A study of Mus musculus with 6 samples.

Results

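In cultured mouse natural killer (NK) cells, 2823 intergenic regions within 50000 bp of an annotated transcription start held an Eomes peak in at least 2 of 3 experiments. They were 14.0% of the 20126 regions found in at least 2 lists, and 84399 regions were obtained in all when the 3 peak lists were merged. Intervals sharing at least 1 bp were merged, each region took the annotation and the assigned gene of its peak with the largest pileup, and those annotated as distal intergenic with an absolute distance of 50000 bp or less were kept. The regions were thus selected on recurrence, position and class, and none of these is a finding about them.

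The libraries came from 3 separate experiments, each with 1 Eomes immunoprecipitate (IP) and 1 input of DNA that was not immunoprecipitated, and the authors' peak list of an experiment sets its IP against its own input. All 6 libraries came from NK cells of wild-type C57BL/6 mice, 8 to 12 weeks of age, whose spleen cells were pooled. IL-15, a survival and growth factor of NK cells, was given at 100 ng/mL during a culture of 4 days. Pooling of animals and expansion in culture limit the cells as a model of NK cells in the spleen, and no library from cells without Eomes was analysed here. Peak lists hold no expression values, so the labelled cell type cannot be checked against its markers.

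Eomes is a T-box transcription factor. Factors of this family bind short elements built on AGGTGTGA through their T-box domain, at promoters and at enhancers that can lie far from the gene they act on. In NK cells Eomes is known for its part in maturation and in the expression of cytotoxic and receptor genes, alongside the related factor T-bet, encoded by Tbx21. A region is named here after the gene the deposited annotation assigns to it, which is the one with the nearest transcript start and need not be the gene that the region acts on.

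Of the 2823 regions, 1306 had a peak in all 3 lists and 1517 in 2 lists. Of those in 2 lists, 763 were shared by experiments 1 and 3, 501 by experiments 2 and 3, and 253 by experiments 1 and 2. Without experiment 1, 2 or 3, regions shared by the remaining pair numbered 1808, 2066 and 1562. Experiments 1, 2 and 3 gave lists of 37456, 33841 and 46329 intervals, whose smallest pileup (IP fragments at the summit) was 8, 7 and 9. Binding below these values could not be seen. They are the smallest values of whole lists, so binding above them could also go unlisted where the background was raised. Regions had a median width of 342 bp (158 to 1549 bp), and their median pileup was 16, 14 and 21 in experiments 1, 2 and 3. Their median fold enrichment over background, the authors' value for each peak, was 4.64, 5.17 and 5.10 in the same order.

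Sequence could be read at the 67 regions with a summit inside a RefSeq start window, which runs from 250 bp before to 50 bp after an annotated start of GRCm38.p6, the assembly behind mm10. All 4 windows that hold the T-box motif AGGTGTGA on either strand are printed, followed by the window of a region assigned to Eomes itself, and by that of the highest-ranked region with no copy of the 6-letter core GGTGTG. They run 5′ to 3′ on the strand of the named gene, and capitals mark AGGTGTGA in the first 4 and the 7-letter core GGTGTGA in Gm33460, in either orientation.
Gm33078: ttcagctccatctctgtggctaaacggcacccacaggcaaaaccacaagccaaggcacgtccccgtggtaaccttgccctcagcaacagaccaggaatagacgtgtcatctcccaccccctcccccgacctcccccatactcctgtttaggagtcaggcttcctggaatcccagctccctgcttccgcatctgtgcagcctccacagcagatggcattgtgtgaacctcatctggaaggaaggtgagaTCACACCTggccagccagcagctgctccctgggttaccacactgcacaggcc
Gm31871: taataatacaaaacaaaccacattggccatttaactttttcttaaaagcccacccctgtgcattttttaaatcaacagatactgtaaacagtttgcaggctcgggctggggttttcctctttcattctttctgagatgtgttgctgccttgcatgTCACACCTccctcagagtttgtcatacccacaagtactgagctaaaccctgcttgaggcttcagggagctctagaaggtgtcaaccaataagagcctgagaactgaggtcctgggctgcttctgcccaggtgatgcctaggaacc
Gm36077: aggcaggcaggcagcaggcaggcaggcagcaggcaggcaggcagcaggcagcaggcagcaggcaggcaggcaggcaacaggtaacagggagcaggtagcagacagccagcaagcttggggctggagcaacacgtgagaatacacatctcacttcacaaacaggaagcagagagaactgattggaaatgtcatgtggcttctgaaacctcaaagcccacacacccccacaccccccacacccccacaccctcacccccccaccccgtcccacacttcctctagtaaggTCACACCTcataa
Gm38748: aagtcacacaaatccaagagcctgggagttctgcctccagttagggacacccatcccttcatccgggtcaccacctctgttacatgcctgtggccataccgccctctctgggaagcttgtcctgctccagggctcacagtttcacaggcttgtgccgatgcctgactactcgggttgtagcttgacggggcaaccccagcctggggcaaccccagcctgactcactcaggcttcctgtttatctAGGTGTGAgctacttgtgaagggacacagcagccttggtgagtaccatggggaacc
Gm33460: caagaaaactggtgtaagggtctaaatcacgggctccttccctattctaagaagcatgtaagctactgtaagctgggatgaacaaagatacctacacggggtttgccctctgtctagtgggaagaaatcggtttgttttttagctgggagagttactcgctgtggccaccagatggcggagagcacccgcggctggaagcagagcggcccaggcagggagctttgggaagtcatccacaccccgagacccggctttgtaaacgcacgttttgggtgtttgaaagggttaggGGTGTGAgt
Gm33701: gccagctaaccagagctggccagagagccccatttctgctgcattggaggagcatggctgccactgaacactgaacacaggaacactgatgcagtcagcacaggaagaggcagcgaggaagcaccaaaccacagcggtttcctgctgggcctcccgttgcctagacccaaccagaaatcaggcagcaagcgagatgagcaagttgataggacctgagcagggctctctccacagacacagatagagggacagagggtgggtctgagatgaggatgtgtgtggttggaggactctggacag

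The window of Gm33078 (chr11:57911859-57912158, + strand) belonged to a region (chr11:57911700-57912330, assigned to Gm12244) with a mean percentile of 99.0 by −log10 q-value within its lists. Its fold was 13.6, 12.6 and 18.2 in experiments 1, 2 and 3 (14.8 ± 3.0, SD, n = 3). The motif stood 219, 206 and 98 bp from the 3 summits, so it was not at the point of highest IP signal. In the window of Gm38748 (chr5:146857606-146857905, + strand, assigned to Rasl11a, a Ras-like GTPase gene) the motif stood 25, 39 and 2 bp from the summits, at a lower fold of 4.68 ± 1.25 (SD, n = 3). The windows of Gm31871 (chr9:32594246-32594545, + strand) and Gm36077 (chr1:151083871-151084170, - strand) carried the motif 123 bp or more from every summit, with folds of 5.32 ± 0.0232 (SD, n = 2) and 5.35 ± 2.76 (SD, n = 3). Beside Eomes, the window of Gm33460 (chr9:118489730-118490029, - strand) had the 7-letter core 29 and 7 bp from the summits of experiments 1 and 3, with folds of 5.20 and 4.00. The summit of experiment 1 lay outside this window, where no sequence was read. The window of Gm33701 (chr9:119743966-119744265, + strand), of a region assigned to the sodium channel gene Scn10a, had no core and folds of 6.49, 11.2 and 7.52.

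AGGTGTGA or its reverse complement occurred in 4 of the 67 windows (5.97%, 95% Wilson interval 2.35 to 14.4), against 1.27% of all 32851 RefSeq start windows and 0.958% of 4908 windows that hold a summit of a promoter region. The 7-letter core GGTGTGA, which the longer motif contains, occurred in 11 of the 67 (16.4%, 9.42 to 27.1), against 3.98% of all windows and 4.12% of the promoter windows. For the 6-letter core the shares were close, at 23.9% of the 67, 19.1% of all windows and 18.5% of the promoter windows. RUNX letters TGTGGT were present in 25.4% of the 67 windows, 16.8% of all windows and 12.6% of the promoter windows, and AP-1 letters TGANTCA in 14.9%, 7.81% and 3.99%. ETS letters GGAAGT were present in 28.4% of the 67 windows (19.0 to 40.1), above the 23.8% of all windows and below the 32.0% of the promoter windows. Letters were read on either strand, and the RUNX and T-box letters can overlap. The 67 windows had a median GC content of 56.7%, against 52.7% in all windows and 63.7% in the promoter windows, and the part of base composition in these shares was not tested. Since they lie at annotated starts, the 67 regions need not stand for the other members, whose sequence was not read. A match is a run of letters and not a shown binding site.

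The 20 leading regions of all 3 lists, ranked by that mean percentile, included sites beside genes of chemokines, of a cytokine, of lymphoid factors and of a signalling phosphatase. The first was chr13:45443024-45443573, 42757 bp downstream of the start of Gm23387 and between the protein-coding genes Mylip, 31084 bp away, and Gmpr. Its fold was 27.2, 29.3 and 33.1 in experiments 1, 2 and 3, on a pileup of 98, 67 and 139 fragments. The second, chr5:36839588-36840485, lay 8935 bp upstream of Man2b2, a lysosomal mannosidase gene, with folds of 25.8, 23.8 and 34.4. Both had a mean percentile of at least 99.96.

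Ccl5 encodes a chemokine that NK cells secrete. The region 4505 bp upstream of its start (chr11:83534989-83535473) had folds of 22.7, 21.4 and 19.9 in experiments 1, 2 and 3 (21.4 ± 1.38, SD, n = 3). A second region 10326 bp upstream had 11.7, 17.3 and 16.4. Xcl1, which encodes lymphotactin, had a region 30459 bp upstream (chr1:164965986-164966522) with folds of 15.6, 22.5 and 20.3. Il10, the gene of an inhibitory cytokine, had a region 5861 bp downstream of its start and 736 bp past the gene (chr1:131025706-131026296), with folds of 18.7, 19.8 and 20.6. These 4 regions were at least 11.7-fold enriched in every experiment.

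Among T cell and lymphoid factors, Tcf7, which encodes the HMG-box factor TCF-1, had 4 regions between 16495 and 35986 bp upstream, 3 of them in all 3 lists. The nearest (chr11:52299509-52300222) had folds of 17.6, 22.4 and 22.8, the one at 30926 bp had 20.8, 13.6 and 9.63, and the one at 35390 bp had 15.9, 26.3 and 18.2. No experiment was highest at all 3. Bcl11b, the gene of a zinc finger factor of T cells and innate lymphoid cells, had a region 38144 bp upstream (chr12:108041713-108042672) with folds of 22.0, 33.2 and 14.5, a ratio of 2.29 between experiments and the widest of the 20. Trac, the constant segment of the T cell receptor alpha chain, had a region 6617 bp downstream of its start and 7619 bp from Dad1 (chr14:54227138-54227866), with folds of 16.2, 26.3 and 26.9.

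Dusp2, a phosphatase gene of MAP kinase signalling, gave the most even values of the 20 leading regions. Its region 21090 bp upstream (chr2:127314292-127315069) had folds of 23.6, 23.9 and 23.6 (23.7 ± 0.162, SD, n = 3), although the coding gene nearest to it was Stard7, 15357 bp away. A region assigned to C1qtnf6 (chr15:78511991-78512545), with folds of 22.6, 25.8 and 29.9, lay 370 bp from Il2rb, the gene of the receptor chain that IL-2 and IL-15 share, and 10801 bp from C1qtnf6. The nearest protein-coding gene was thus a receptor gene of the cytokine used for culture, and not the assigned one. A second region, assigned to Il2rb itself and lying over its RefSeq gene, had folds of 6.30, 6.21 and 15.0.

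Regions assigned to Ubxn11 (3377 bp upstream, and 3567 bp from Cd52, a lymphocyte surface glycoprotein gene), Osgin1, B4galt5, Serpina12, Wisp2, 1700017B05Rik, Mir142hg, the host transcript of miR-142 of blood cells, and a start with no symbol on chromosome 2 made up most of the remaining leaders. Their mean folds ran from 17.5 ± 3.69 at Mir142hg to 23.5 ± 5.78 at Ubxn11 (SD, n = 3 each). The one not yet described lay 39453 bp downstream of the start of Gm16225 and 39611 bp from Runx3, with folds of 19.9, 21.1 and 35.0.

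**Figure D1:**
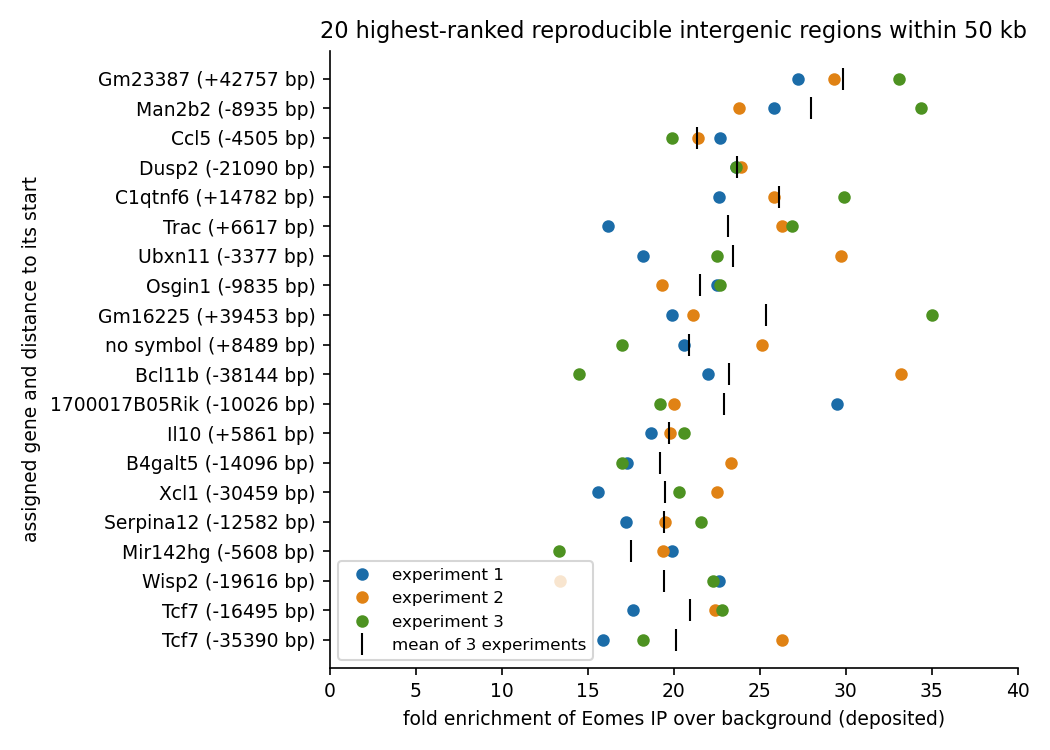
Fold enrichment of Eomes IP over background (x axis, deposited values) for the 20 highest-ranked intergenic regions within 50000 bp, labelled by assigned gene and distance to its start (y axis). Points are the 3 experiments and bars their means; the lowest point is 13.3, and Dusp2 shows the least spread while Bcl11b runs from 14.5 to 33.2.

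Across the 1306 regions of all 3 lists, the highest fold exceeded the lowest by a median of 1.56 times, and the ratio was over 2 at 261 regions (20%). Experiment 3 gave the highest fold at 44.9% of them, experiment 2 at 32.2% and experiment 1 at 22.9%. Spearman's rho of the folds across regions was 0.59 between experiments 1 and 2, 0.64 between 1 and 3 and 0.59 between 2 and 3, a description over regions that share their libraries. The widest ratio, 5.41, was at a region on chromosome 6 with no symbol, which had folds of 2.78, 15.1 and 4.5. Gm13605 followed with 7.86, 2.62 and 11.9 and Gm17501 with 4.34, 18.9 and 5.10. Experiment 2 stood apart at each of these 3 regions.

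Summits of the 3 experiments lay close together, which the merging of overlapping short intervals favours. Intervals had a median of 199, 200 and 239 bp in experiments 1, 2 and 3, so the span is no independent measure of agreement. Their span over the 3 experiments had a median of 42.5 bp (quartiles 23 and 86 bp), and 78.8% of the 1306 regions had all summits within 100 bp. Intergenic regions beyond 50000 bp had a median span of 35.5 bp, introns 39 bp and promoters 77 bp. A peak in all 3 lists was found for 46.3% of the intergenic regions within 50000 bp (95% Wilson interval 44.4 to 48.1), against 43.2% (39.8 to 46.7) of those beyond, 46.4% (44.7 to 48.0) of intronic regions and 55.4% (54.5 to 56.3) of promoter regions. Such intervals cover counting error only.

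The intergenic regions within 50000 bp had a higher median fold than promoters in each experiment, and a slightly lower one than introns and intergenic regions beyond 50000 bp, differences that 3 experiments cannot take past a threshold of 0.05. Among regions found in all 3 lists, the median fold was 5.45, 5.95 and 6.60 at the intergenic regions within 50000 bp in experiments 1, 2 and 3, against 4.81, 5.60 and 5.78 at the 6593 promoter regions. The difference averaged 0.607 ± 0.236 fold units (SD, n = 3), higher in 3 of 3 experiments, with p = 0.25 in a two-sided exact paired permutation test over the experiments, the smallest p that 3 pairs allow. Introns had 5.63, 6.01 and 6.90 (difference −0.176 ± 0.12, lower in 3 of 3, exact p = 0.25), and intergenic regions beyond 50000 bp had 6.08, 6.05 and 7.15 (−0.421 ± 0.283, lower in 3 of 3, exact p = 0.25). Without experiment 1, 2 or 3, where a region needs both remaining lists, the difference from promoters was 0.308, 0.184 and 0.252 and that from introns −0.0424, −0.122 and −0.13, while that from regions beyond 50000 bp was 0.102, −0.117 and −0.192, so its sign did not hold without experiment 1. Without peaks on a high background it was −0.151, and the difference from introns −0.0328, each lower in 2 of 3 experiments, while that from promoters was 0.593. The smaller classes did not all lie above: the 196 gene-end regions had medians of 5.16, 5.60 and 6.33, below the intergenic regions within 50000 bp in each experiment, and the 207 exon regions had 5.38, 6.03 and 6.91, differences that were not tested.

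**Figure D2:**
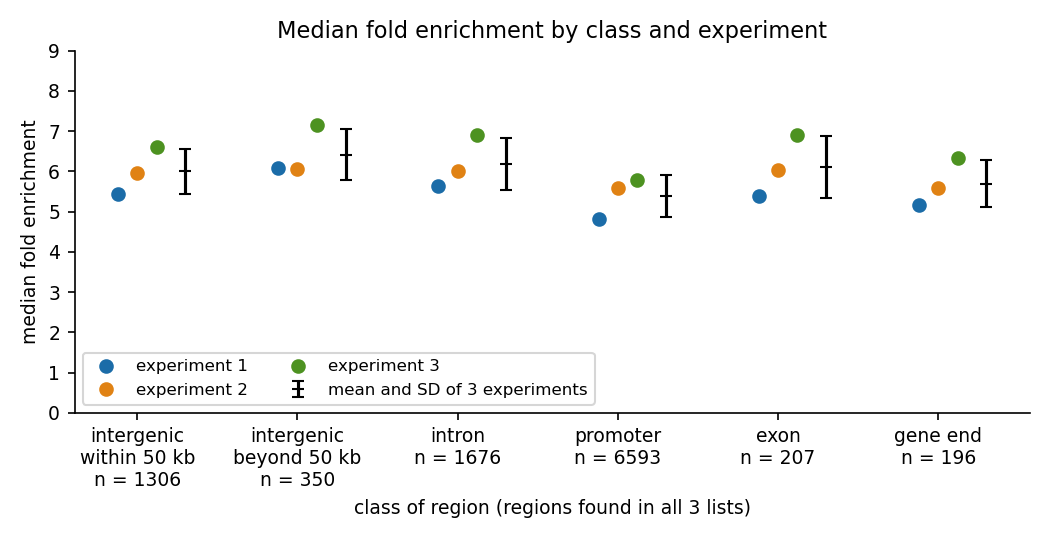
Median fold enrichment (y axis) of regions found in all 3 lists, by annotation class (x axis, n regions per class). Coloured points are the 3 experiments and black bars the mean and SD; the intergenic regions within 50000 bp lie above the promoters and slightly below introns and regions beyond 50000 bp in each experiment.

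The share of these regions was larger at the top of the ranking, and so were those of introns and of intergenic regions beyond 50000 bp. The intergenic regions within 50000 bp were 14 of the 50 highest-ranked regions of all 3 lists (28.0%, 95% Wilson interval 17.5 to 41.7), 20.6% of the first 500 and 19.2% of the first 1000, against 12.7% of all 10328 such regions. Introns were 26.8% of the first 500 and 16.2% of all, intergenic regions beyond 50000 bp 7.4% and 3.39%, and promoters 40.2% and 63.8%. These shares describe the ranking and were not tested.

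A raised local background touched a part of the regions. Background, recovered from pileup and fold, exceeded 2 times the lowest value shared within a list at 13.4%, 13.3% and 13.1% of them in experiments 1, 2 and 3, against 11%, 8.31% and 10.8% of all other regions found in at least 2 lists. The unplaced scaffold JH584304 carried 31 regions, all assigned to AC149090.1, with a median background of 42.3, 25 and 49.4 fragments and median folds of only 2.24, 2.64 and 2.29. The 6 regions on chromosome Y had backgrounds of 9.34, 6.29 and 13.1. With the numbered, X and Y chromosomes alone 2790 regions were left, and the difference from promoters was 0.663 (higher in 3 of 3). That from introns was −0.12 ± 0.15 (SD, n = 3; lower in 2 of 3 experiments, exact p = 0.5), and that from regions beyond 50000 bp −0.387 (lower in 3 of 3). Chromosome X had 8 regions, 5.59% of its reproducible regions, while the numbered chromosomes ranged from 9.62% on chromosome 19 to 17.6% on chromosome 6.

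Most regions lay upstream of their assigned start. Positions inside the assigned gene lie downstream of its start and are given other classes, so an excess upstream can follow from the selection. There were 1772 upstream (62.8%, 95% Wilson interval 61.0 to 64.5) and 1051 downstream, at a median absolute distance of 14906 bp. The range ran from 3021 bp, since the deposited annotation calls positions within 3000 bp promoter, to 49963 bp. The bin from 3000 to 10000 bp upstream alone held 653 regions (23.1%), the bin of the same width downstream 259 (9.17%). Median fold in the 10 distance bins ranged from 4.55 to 4.82 in experiment 1, from 4.74 to 5.91 in experiment 2 and from 4.8 to 5.52 in experiment 3.

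**Figure D3:**
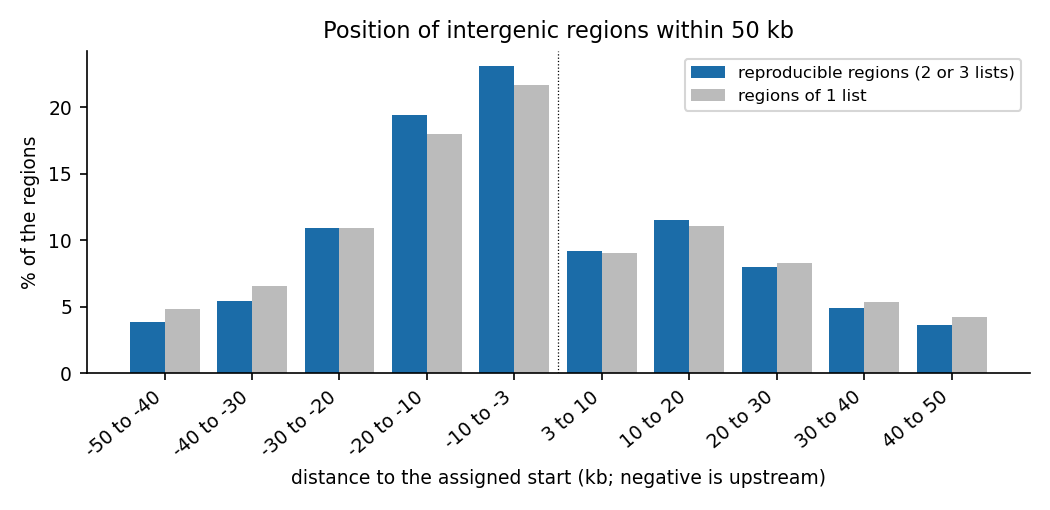
Share of regions (y axis, %) by distance to the assigned start (x axis, kb, negative upstream) for the 2823 reproducible intergenic regions (blue) and the 13260 intergenic regions of 1 list (grey). Both are highest in the bin from 3000 to 10000 bp upstream, and the reproducible ones lie slightly closer. Positions within 3000 bp are left out as promoter, and the bin nearest the start on each side is narrower than the others.

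Intergenic peaks found in 1 list lay upstream nearly as often. In a comparison chosen after the data were seen, the share upstream was 62.5%, 62.8% and 63.1% in experiments 1, 2 and 3, against 61.8%, 61.8% and 62.4% of intergenic peaks at like distances found in that list only, a difference of 0.778 ± 0.187 percentage points (SD, n = 3; higher in 3 of 3, exact paired permutation p = 0.25, the smallest possible). Distances were shorter, with medians of 15068, 14770 and 14728.5 bp against 16384, 16454 and 15639 bp (−1304 ± 387 bp, shorter in 3 of 3, exact p = 0.25). The assigned gene had a promoter peak in the same list for 50.1%, 49.9% and 58.2% of the recurrent regions, against 37.3%, 37.8% and 49.1% of the peaks of 1 list (11.3 ± 1.92 percentage points, higher in 3 of 3, exact p = 0.25).

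The 2 regions on each side of the limit of 50000 bp are given as examples, too few to show how the sides compare. Just inside were Gm22503 at 49910 bp, with folds of 6.03 and 7.51 in experiments 2 and 3, and AC149090.1 at 49963 bp, with 2.49, 2.45 and 3.35. Just outside were Gm22992 at 50028 bp upstream, with 3.73 and 2.89 in experiments 1 and 3, and Gm13601 at 50045 bp upstream, with 3.31 and 5.17 in experiments 1 and 2. In the same order, mean percentiles were 84.37 and 87.44 inside and 22.87 and 37.69 outside. The region of AC149090.1 stood on a background of 29.5, 21.8 and 29.7 fragments in experiments 1, 2 and 3.

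The regions were assigned to 1985 genes, 1500 of which had 1 region, 305 had 2 and 180 had at least 3. A protein-coding gene was assigned to 61.8%, a pseudogene to 8.29% and a long noncoding RNA gene to 8.22%, while 15.7% had an assigned name not matched in the RefSeq table. The nearest protein-coding gene, by its RefSeq bounds, was the assigned gene for 52.0% of the 2790 regions on chromosomes with such genes, at a median distance of 13229.5 bp. Of all 2823 regions, 743 (26.3%) lay over some RefSeq gene and 225 (7.97%) over a protein-coding one, so intergenic is the word of the deposited annotation and not of every gene model.

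Several genes had a run of regions. Gm16225 had 13 between 11292 and 45479 bp downstream of its start, and Runx3, which encodes a transcription factor of cytotoxic lymphocytes, was the nearest protein-coding gene to all 13, at 11490 to 45677 bp. Besides the strong one at 39453 bp, the regions at 11292, 21203 and 17391 bp had mean folds of 10.3 ± 3.87, 9.72 ± 2.21 and 7.47 ± 1.53 (SD, n = 3 each), and the other 9 had mean folds of 5.4 or less. One site thus stood out from a row of weaker ones. Gm25888 had 9 regions, of which the strongest had folds of 11.6, 10.4 and 18.7 and the nearest coding gene of 6 was Irf2bpl. Sik1, a salt-inducible kinase gene, had 8, led by folds of 6.95, 12.0 and 9.59, and Gm23882 had 8, of which 7 were nearest to Psd2. Ankdd1a had 7, and Btg2, an antiproliferative gene, had 6, of which 2 were in all 3 lists. Gm10232 also had 6, none of them in all 3 lists, on backgrounds of 8.23, 7.55 and 10.5 fragments.

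**Figure D4:**
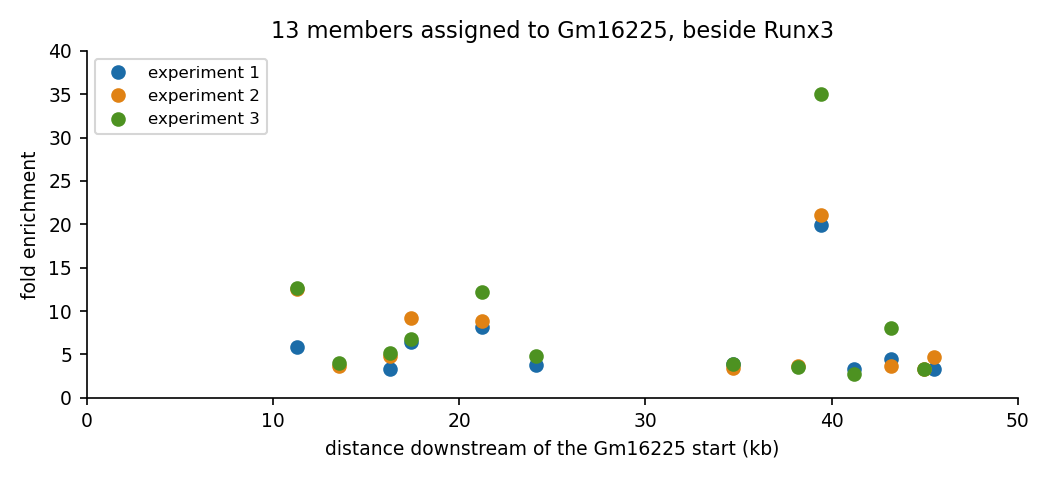
Fold enrichment (y axis) of the 13 regions assigned to Gm16225 against distance downstream of its start (x axis, kb), with points for the 3 experiments. The region at 39453 bp reaches 19.9, 21.1 and 35.0 while the others stay at or below 12.7.

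Of 21900 protein-coding genes in the RefSeq table, 1272 (5.81%) had at least 1 region assigned, and 20.3% had an intergenic region of 1 list within the same distance. Lists of regulators and cytokine genes had the largest shares beside this background. The lists were chosen with earlier results of these data known, so their shares are descriptions only. Of 56 transcription factors of NK cells and innate lymphoid cells (ILC), 21 had a region (37.5%, 95% Wilson interval 26.0 to 50.6), as did 16 of 43 signalling regulators (37.2%), 9 of 25 cytokines and chemokines (36.0%) and 14 of 39 cytokine receptors and their signalling genes (35.9%). Migration and adhesion genes had 8 of 33 (24.2%), myeloid genes 3 of 17 (17.6%), cytotoxic machinery 4 of 23 (17.4%) and NK receptors and adaptors 7 of 42 (16.7%). Survival and cell cycle genes had 3 of 29 (10.3%), B cell genes 1 of 14 (7.14%), ribosomal proteins 2 of 30 (6.67%), genes of the mesoderm and endoderm 1 of 20 and liver and neuronal genes 1 of 20 (5.0% each), and T cell genes 0 of 19 (interval up to 16.8%). Only protein-coding genes were counted, so the T cell receptor segment Trac, whose region was among the leaders, could not enter the T cell list. Tcf7 and Bcl11b, described above among T cell and lymphoid factors, had regions but were counted with the NK and ILC factors. The 0 thus holds for the 19 listed genes alone. Without experiment 1, 2 or 3, 866, 983 and 768 protein-coding genes had a region, as did 20, 18 and 16 of the 56 factors, 5, 5 and 7 of the migration genes and 3, 1 and 1 of the myeloid genes. Regions of 1 list were more frequent than the 20.3% of all genes in 12 of the 14 lists, from 21.4% of the B cell genes to 60.7% of the factors. The other two were the liver and neuronal genes (4 of 20) and the ribosomal proteins (3 of 30).

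**Figure D5:**
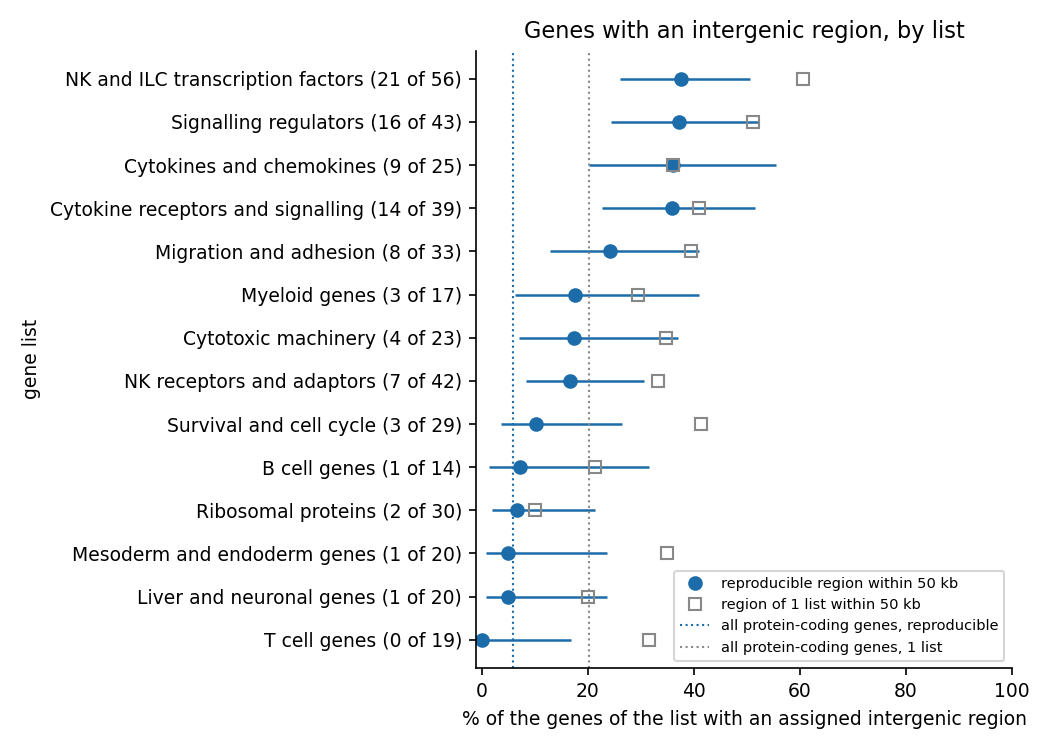
Share of the genes of each list (x axis, %) with a reproducible intergenic region assigned (filled points, 95% Wilson intervals) or with an intergenic region of 1 list (open squares), with counts in the labels (y axis). Dotted lines mark all protein-coding genes, at 5.81% and 20.3%. Factors, signalling regulators, cytokines and cytokine receptors lie highest. The 19 protein-coding T cell genes of the list are at 0, a list that leaves out Trac, Tcf7 and Bcl11b.

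Eomes itself had 5 regions between 7556 and 10728 bp downstream of its start, all past the end of its RefSeq gene and only 1 of them in all 3 lists. That one had folds of 3.54, 4.13 and 3.31, below the medians of the regions in all 3 lists. Nr4a1, Fos, Junb, Egr1, Prdm1 and Bcl11b had 3 regions each. After the one at Bcl11b, the strongest was at Egr1, an immediate-early factor gene, 3165 bp upstream, with folds of 15.3, 17.4 and 13.6, and at Junb, an AP-1 subunit gene, the region 4013 bp upstream had 10.4, 7.48 and 8.70. Prdm1, the gene of the repressor Blimp-1, had folds of 4.73, 8.37 and 10.6 at 48159 bp downstream of its start.

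Among the cytokine genes, Ifng, the gene of interferon gamma, had 5 regions on both sides. Those at 5225 bp upstream and at 28046 and 29352 bp downstream were in all 3 lists, with folds of 8.39, 4.73 and 10.8, of 13.4, 4.81 and 10.8, and of 9.68, 7.71 and 13.5. Experiment 2 was lowest at each of them. Ccl4, a chemokine gene, had folds of 8.14, 8.28 and 11.3 at a region that lies over its RefSeq gene. Among receptors and their signalling genes, Il21r, the IL-21 receptor gene, had 6 regions, led by one 32006 bp downstream of its start and 931 bp past the gene with 10.2, 9.71 and 16.7. Its regions at 23199, 21684 and 14300 bp upstream were nearer to the gene Il4ra, at 394, 1564 and 9381 bp. Ifnar2, a chain of the type I interferon receptor, had one region 5629 bp upstream with 14.9, 18.2 and 25.2, and Socs1, a suppressor of cytokine signalling, had 4, led by 11.7, 15.4 and 14.9 at 16330 bp downstream.

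Signalling regulators with a region included both brakes on receptor signals and a proximal kinase. Zc3h12a, the gene of the RNase Regnase-1, had a region 48826 bp upstream with folds of 9.73, 18 and 20.8. Nfkb1, an NF-kB subunit gene, had 11.6, 15.4 and 11.8 at 14231 bp downstream of its start, and Dusp1, a further MAP kinase phosphatase gene, had 9.13, 11 and 10.1 at 6223 bp upstream. Zfp36l2, which encodes an RNA-decay protein, had 6 regions, of which 4 were in all 3 lists, and Syk, a proximal kinase gene, had 4.

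Klrb1c, which encodes NK1.1, had 5 regions, all in 3 lists, and the strongest lay 10262 bp upstream with folds of 14.6, 9.46 and 11.4. Klrg1, an inhibitory lectin receptor gene, had 10.7, 19.1 and 10.9 at 23523 bp downstream of its start. Tigit, a checkpoint receptor gene, had 4 regions, and the one at 34782 bp upstream varied, at 10.1, 5.96 and 15.9. The cytotoxic genes had lower folds than these leaders: Fasl, the Fas ligand gene, had 8.51, 5.29 and 10.8, Srgn, the granule proteoglycan serglycin, had 6.33, 4.5 and 7.33, and Gzmb, granzyme B, had 5.61, 5.02 and 5.58. Serpinb9, an inhibitor of granzyme B, had 5.63 and 5.33 in experiments 1 and 3 only.

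Genes of migration had modest values. S1pr1, the receptor for exit from lymphoid organs, had folds of 6.08, 4.69 and 10.8 at 22309 bp downstream of its start, Coro1a, an actin regulator, had 4.90, 6.57 and 6.40, Cx3cr1, a chemokine receptor, had 5.68 and 5.02 in experiments 1 and 2, and Ccr1 had 4.47, 6.19 and 3.52. In the lists of other lineages, Csf1r, a macrophage receptor gene whose region was nearer to Pdgfrb, had 3.47, 8.46 and 10.5, Neurog2, a neuronal factor gene, had 5.33, 6.37 and 10.8, and Cd22, a B cell lectin gene, had 3.29, 3.44 and 4.10. Mixl1, a mesoderm factor gene, had 4.38 and 3.96 in experiments 1 and 3. The survival and cell cycle genes Ccne1, Bbc3 and Mki67 had mean folds of 6.27, 5.56 and 4.66, and the ribosomal protein genes Rps14 and Rpl6 had 10.2 and 3.54, although the Rps14 region lies over Ndst1.

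Genes with such a region often had a peak at the promoter too. Of the 1272 protein-coding genes with one, 738 (58.0%, 95% Wilson interval 55.3 to 60.7) also had a promoter region found in at least 2 lists, against 7410 of the 20628 without (35.9%, 35.3 to 36.6). Counted by region, the assigned gene had one for 45.1% of the regions within 50000 bp, 40.4% of those beyond and 33.8% of those of 1 list. Leaving out every region over a RefSeq gene or start window, a choice made after the data were seen, left 2073 regions at 4.33% of protein-coding genes, with 15 of the 56 factors, 12 of the 43 signalling regulators, 10 of the 39 cytokine receptor genes and 5 of the 25 cytokines.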

How the data were processed

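Chromatin was immunoprecipitated with an anti-Eomes antibody, and fragments of 200 to 600 bp were amplified for 15 cycles, per the labels. The submitters' processing notes name mm10, Novoalign and ChIPseeker; which peak caller was used is not given. Peaks were called per experiment, per the file headers and descriptions. The deposited pileup, a signal value, was read as IP fragments at the summit. The fold enrichment is the ratio the authors deposited. The deposited −log10 p-values and −log10 q-values ranked peaks within a list. Depth per library is unknown. The length column exceeded the interval by 1 bp, so starts may be shifted by 1 bp.

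Intervals were merged in Python 3.11.15 with pandas 2.3.3, and the 84399 regions equalled those of bedtools 2.31.1. Background was recovered as (pileup + 1) / fold − 1. Classes were compared by median fold within each list, with the experiment as the replicate block. Genes were matched by symbol to RefSeq (GRCm38.p6), the source of the start windows. No genome was used here, so the planned motif tests around all summits were not run. Regions and the 14 gene lists were chosen with earlier results of these data known. Zfp683 and Ighm are not protein-coding entries in the table and were left out. Named were the 20 best-ranked regions, up to 4 per list, the genes with most regions (at most 8, with 5 or more), the 2 regions on each side of the limit and the 3 with the widest fold ratio. Other genes, and the printed windows, were chosen after their values were seen.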

Additional observations from a re-analysis of the deposited data

How the results depend on the processing

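Of 32 counts and shares recomputed under other settings, 27 stayed within 1.5 times the count or within the interval of the share. No difference can pass a threshold of 0.05 with 3 experiments, so only size and sign were compared: of 57 differences recomputed in the same unit, 56 kept their sign, and 15 of these were over 1.5 times larger or smaller. Leaving out each experiment in turn gave 1562 to 2066 regions, 768 to 983 protein-coding genes with a region, a share upstream of 62.4% to 63.3%, and differences in median fold from promoters of 0.184 to 0.308, from introns of −0.13 to −0.0424 and from intergenic regions beyond 50000 bp of −0.192 to 0.102, the last changing sign without experiment 1. Regions in all 3 lists numbered 1306, at 653 genes, as fewer regions qualify. Against regions of 1 list, over all settings, the differences ran from 0.353 to 1.3 percentage points upstream, −1568 to −866 bp in distance and 10.2 to 15.0 points for a promoter peak; leaving out an experiment gave 0.418 to 1.3 points, −1549 to −1107 bp and 10.9 to 13.1 points.

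Pairing by experiment came from the descriptions, which set each IP against its own input. Without the replicate block the differences were the same, and the exact p was 0.3 against promoters, 0.7 against introns and 0.4 against regions beyond 50000 bp; neither form can go below 0.05, where the smallest p is 0.25 paired and 0.1 unpaired. Limits of 25000 and 100000 bp gave 2079 and 3297 regions. The planned motif alternatives were not run without a genome, and the fold comparison uses regions of all 3 lists already. Small pileups limit what weak peaks can show.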
